A study of Mus musculus with 6 samples.

Results

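The 43 genes described here encode coagulation and complement proteins of the blood plasma together with their inhibitors, the enzymes of clot lysis and 1 complement receptor. They were taken by gene symbol from the 52550 genes listed in the deposited table, and each symbol matched 1 row. The level of each was measured by RNA sequencing of GFP-positive cells sorted from embryonic livers of Sox9-GFP mice of the CD-1 strain, with 3 libraries from E16.5 embryos and 3 from E18.5 embryos (the labels give embryonic days 16 and 18). Sox9 is a transcription factor of the biliary lineage, and the GFP reports its activity. All 6 libraries carried this transgene and no group was treated, so the only comparison is of E18.5 with E16.5. Each library came from a pool of 15 livers, and hematopoietic cells were depleted on magnetic beads before the sort. No animal or litter is named in the labels, so p-values measure the spread between these pools.

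The liver parenchyma makes most plasma clotting and complement proteins. In coagulation, serine proteases such as factors VII, IX, X and XI activate each other in turn until thrombin (F2) cuts fibrinogen into fibrin, and plasmin later dissolves the clot. In complement, the classical, lectin and alternative pathways converge on the cleavage of C3, after which C5 (gene Hc in the mouse) and C6 to C9 assemble a pore in the target membrane. Hepatoblasts, the common precursors of hepatocytes and cholangiocytes, begin to make these proteins before birth, whereas mature cholangiocytes are not known as a main source.

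The promoters of 6 members are shown. They include the 3 fibrinogen chain genes, whose levels moved together. The others are Hc, which was called lower, F9, which was called higher, and C3, the most abundant member, which was not called. Both F9 and C3 were higher in every E18.5 library than in every E16.5 library. The windows are from RefSeq on GRCm38.p6 and run on the strand of the gene from 250 bases before its start to 50 after. Capitals mark matches to 2 motifs of liver transcription factors, HNF1 (GTTAATNAT) and C/EBP (TTGCNNAA), searched on both strands, and positions are counted from the start of the gene. Fga lies at chr3:83025903-83026202 (+), Fgb at chr3:83049814-83050113 (-), Fgg at chr3:83007474-83007773 (+), Hc at chr2:35061363-35061662 (-), C3 at chr17:57228087-57228386 (-) and F9 at chrX:59999214-59999513 (+).
Fga: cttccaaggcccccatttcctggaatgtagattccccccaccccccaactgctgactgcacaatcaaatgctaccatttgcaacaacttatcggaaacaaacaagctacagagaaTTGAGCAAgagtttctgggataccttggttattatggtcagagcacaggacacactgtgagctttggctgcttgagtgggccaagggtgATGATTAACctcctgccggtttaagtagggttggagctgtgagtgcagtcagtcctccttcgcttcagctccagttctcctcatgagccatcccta
Fgb: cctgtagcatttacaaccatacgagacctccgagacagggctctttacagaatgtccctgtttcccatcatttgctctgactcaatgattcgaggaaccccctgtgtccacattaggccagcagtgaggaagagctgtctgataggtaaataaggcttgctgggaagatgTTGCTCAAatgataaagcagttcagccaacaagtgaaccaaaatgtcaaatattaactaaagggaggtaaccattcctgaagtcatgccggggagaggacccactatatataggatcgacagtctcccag
Fgg: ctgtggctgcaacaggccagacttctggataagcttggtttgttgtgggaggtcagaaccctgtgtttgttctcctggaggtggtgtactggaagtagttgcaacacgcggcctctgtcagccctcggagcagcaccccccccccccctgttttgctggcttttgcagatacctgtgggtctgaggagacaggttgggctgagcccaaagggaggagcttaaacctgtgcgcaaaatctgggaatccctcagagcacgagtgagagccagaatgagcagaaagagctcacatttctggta
Hc: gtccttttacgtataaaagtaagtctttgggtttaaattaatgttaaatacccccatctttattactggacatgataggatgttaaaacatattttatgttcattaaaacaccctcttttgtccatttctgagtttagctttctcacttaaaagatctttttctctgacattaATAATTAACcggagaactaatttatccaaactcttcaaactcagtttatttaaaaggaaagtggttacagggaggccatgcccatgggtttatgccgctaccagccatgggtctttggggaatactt
C3: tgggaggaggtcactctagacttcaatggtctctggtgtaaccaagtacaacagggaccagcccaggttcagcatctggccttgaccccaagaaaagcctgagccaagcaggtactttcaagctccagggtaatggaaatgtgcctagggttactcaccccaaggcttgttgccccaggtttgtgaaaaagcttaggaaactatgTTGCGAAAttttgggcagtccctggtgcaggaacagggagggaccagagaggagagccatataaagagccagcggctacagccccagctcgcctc
F9: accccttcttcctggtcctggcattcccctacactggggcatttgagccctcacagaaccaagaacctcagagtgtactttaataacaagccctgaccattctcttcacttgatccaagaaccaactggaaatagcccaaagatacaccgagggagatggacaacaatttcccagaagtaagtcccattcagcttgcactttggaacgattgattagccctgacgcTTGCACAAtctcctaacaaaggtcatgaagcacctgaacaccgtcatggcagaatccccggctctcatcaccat

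Fga held an HNF1 match that began at position -46 and a C/EBP match at -135, Fgb a C/EBP match at -80, and Fgg none. The matches in Fga do not overlap. Hc held an HNF1 match at -77, and C3 and F9 each held a C/EBP match, at -45 and -24. RefSeq windows were matched for 34 of the 43 members. Of these, 4 held the HNF1 letters (F13b, Fga, C4bp and Hc), or 11.8%, against 0.940% of the windows of 27025 genes, and 12 held the C/EBP letters, or 35.3% against 12.2%. The letters CAAAGTCC of HNF4 were in 0 of the 34 windows and in 1.63% of all. Of the members with the C/EBP letters F9 was called higher, Serpinc1, C1ra, C1s1 and C9 were called lower, and the others were not called. Of those with the HNF1 letters Hc was called lower and the others were not called. A match describes the letters in a window and was not tested as a binding site or against the direction of a gene.

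The libraries held 13094829 to 26207437 reads recovered from the TPM values (reads per gene length, scaled to the same total in each library), with the fewest in E18.5 replicate C. The labels call the cells cholangiocytes. Cholangiocyte markers were present in every library and 8 of 10 rose, with Sox9 at 157, 186 and 69.5 TPM at E16.5 and 415, 465.5 and 353 TPM at E18.5. The 11 hepatoblast markers nevertheless summed to 18.0%, 18.9% and 23.0% of the E16.5 libraries and to 8.73%, 4.32% and 10.4% of those of E18.5, most of it Alb (albumin), so the sorted cells carried the transcripts of both cell types. The 8 megakaryocyte markers all fell, from a sum of 2793 to 8258 TPM at E16.5 to a sum of 69.3 to 650 TPM at E18.5. Of the myeloid (8 tested), mesenchyme (7) and endothelial (6) markers, 2, 2 and 0 were called, the 2 in each case higher. In these bulk libraries fewer cells of a type and less RNA per cell cannot be told apart.

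The factors were abundant. Their summed level was 29284, 31247 and 35235 TPM in E16.5 replicates A, B and C, and 27193, 15648 and 28135 TPM in the E18.5 libraries in the same order, or 2.93%, 3.12% and 3.52% and then 2.72%, 1.56% and 2.81% of all transcripts. The stages did not overlap in this sum, and E18.5 replicate B stood well below the other two. In E16.5 cells 30 members reached a mean of 100 TPM and 31 were among the top 10% of 21819 protein-coding genes. The same counts in E18.5 cells were 23 and 27. Only C6 and C5ar1 had a mean under 1 TPM over the 6 libraries and were not tested.

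**Figure D1:**
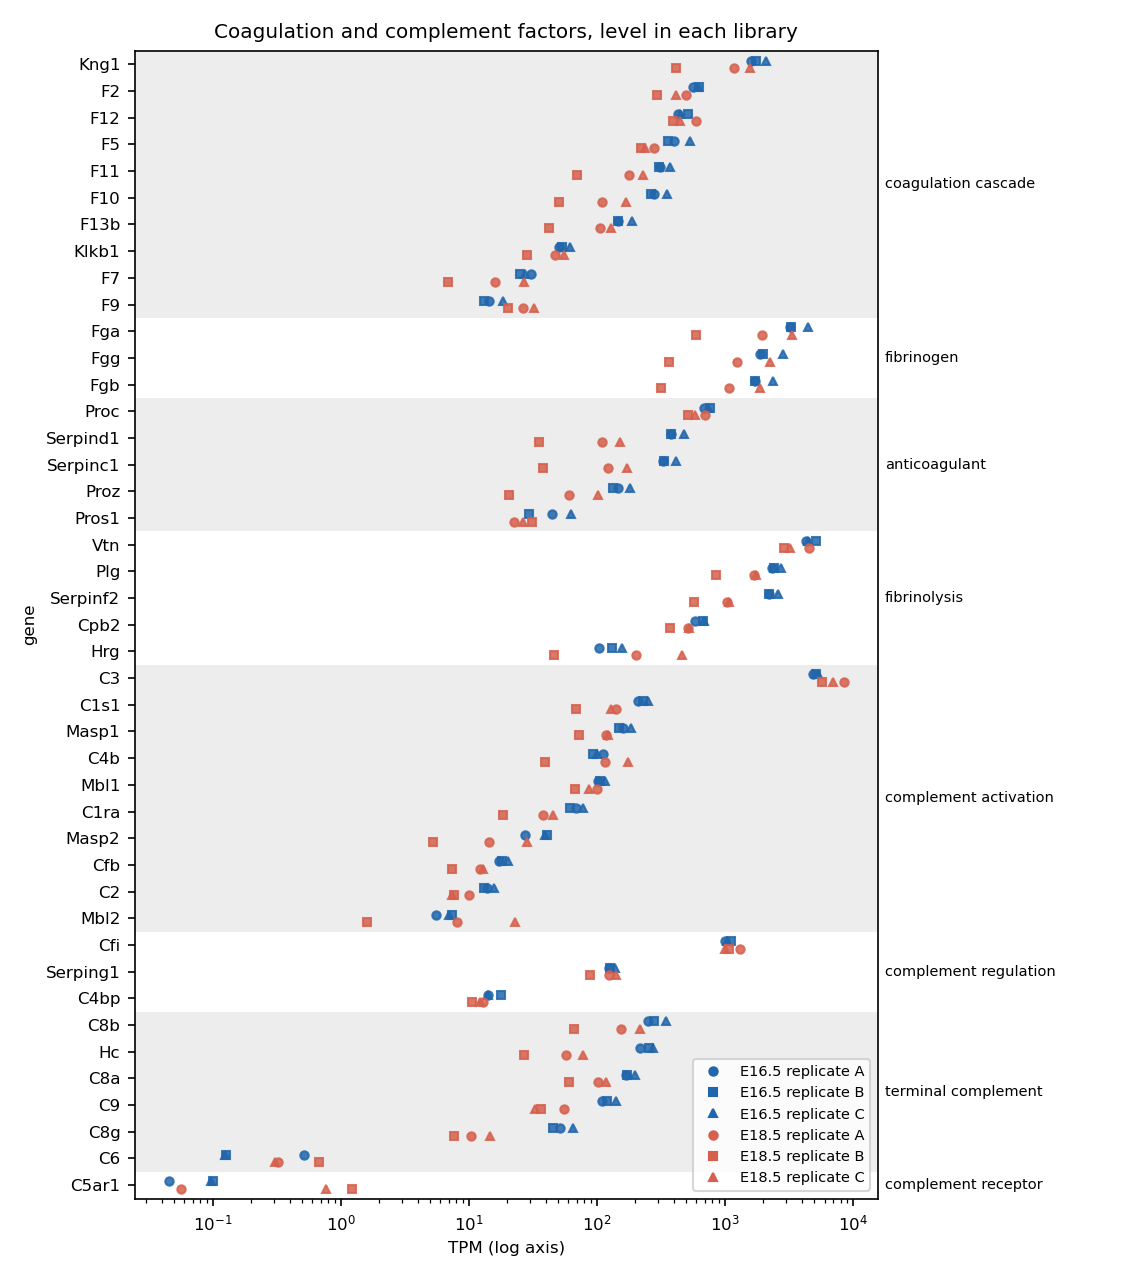
TPM (log axis) of each of the 43 genes in the 6 libraries, E16.5 in blue and E18.5 in red, with the replicate given by the shape of the point and the genes grouped by role. C3 and Vtn led at both stages, C6 and C5ar1 lay near the bottom of the axis, and the square of E18.5 replicate B was the lowest of its stage for 37 of the 41 genes tested.

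Ordered by mean TPM, which is a level per length and can be compared between genes, E16.5 began with C3, Vtn, Fga, Plg, Serpinf2, Fgg, Fgb, Kng1 and Cfi. C3 and Vtn overlapped in their ranges over libraries, as did Vtn and Fga, and 30 of the 42 pairs of neighbours in the order overlapped. At E18.5 the ranges were wider, and 39 of the 42 neighbouring pairs overlapped.

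Across the 41 members tested with limma on log2(TPM + 1), 14 fell and 1 rose at an adjusted p under 0.05, and 26 were not called. Of all 22452 genes tested 5.22% were lower, 26.0% higher and 31.2% called in either direction, so the share of members that were lower (34.1%) was above the background and the share called at all (36.6%) was near it. The median log2 fold change of the members was -0.86, with 35 negative and 6 positive, beside 0.42 for all genes tested. On TPM the typical gene therefore sat 0.42 higher at E18.5, and changes are best read relative to that shift. With median-of-ratios scaling, which puts the median of all genes at 0.02, the median of the members was -1.32, with 19 lower and 0 higher against 10.4% of all genes lower.

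Between the stages 26 of the 41 members did not overlap. All E18.5 libraries lay below all E16.5 libraries for 24 of them, or 58.5%, where 8.30% of all genes did, and above them for F9 and C3, where 45.0% of all genes did. Of the 15 calls only Serpinf2, Hc, C8g and C9 were made in each of the 6 fits that left out 1 library. The count of calls ranged from 5 without E18.5 replicate A to 19 without E18.5 replicate C. It was 12 without E18.5 replicate B and 6, 7 and 6 without E16.5 replicates A, B and C. Calls over all genes fell in these fits too, from 7000 of 22452 with every library. They were 1472 of 22410, 2917 of 22200 and 5686 of 22220 without E18.5 replicates A, B and C. Without E16.5 replicates A, B and C they were 4376 of 22528, 4783 of 22653 and 4082 of 22683.

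**Figure D2:**
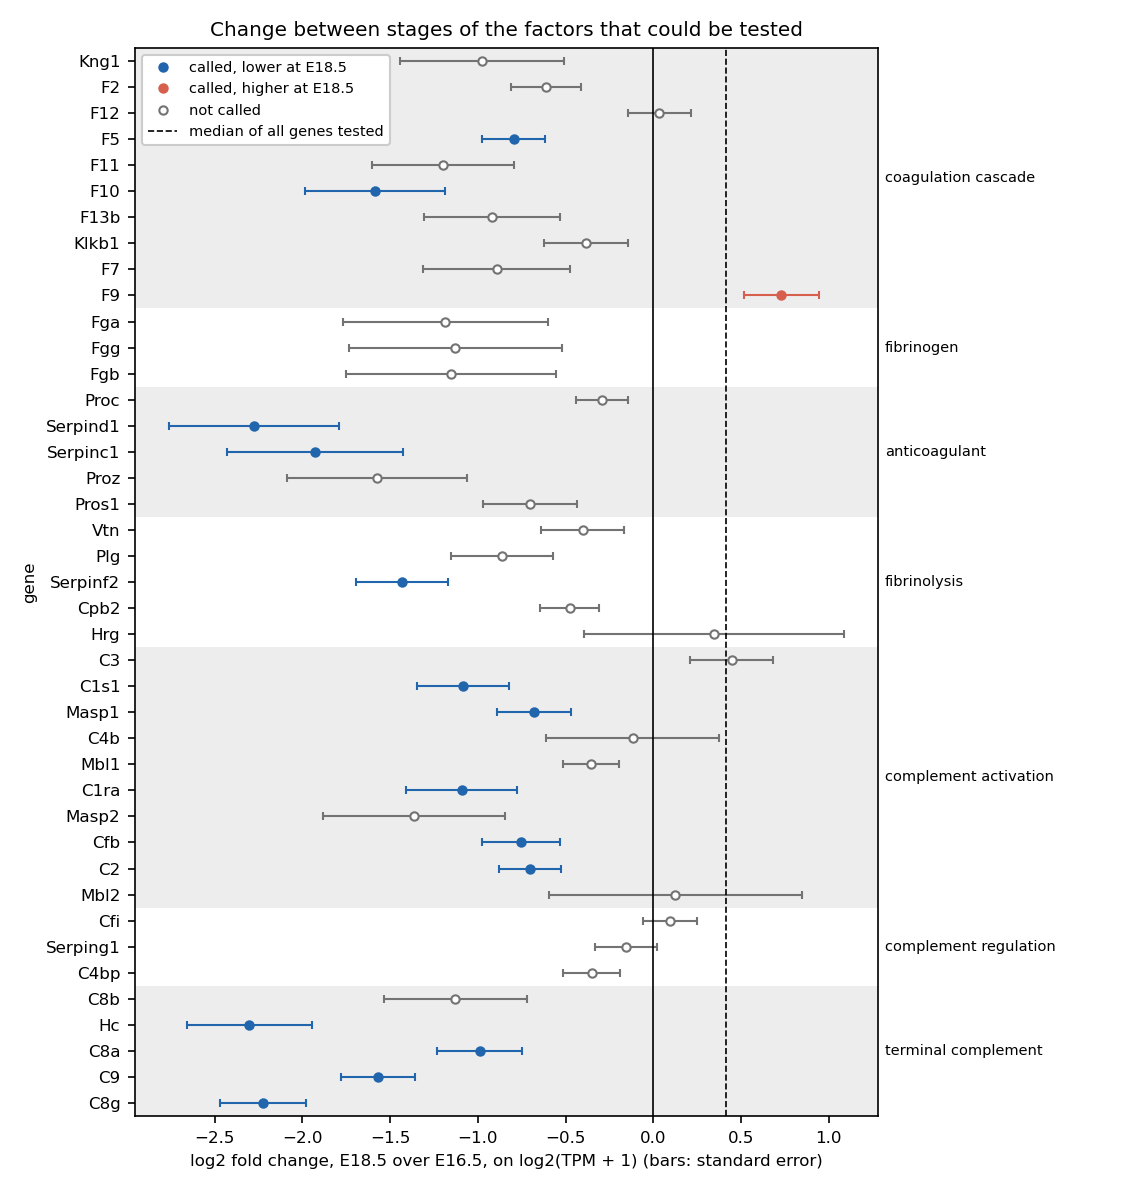
Log2 fold change of E18.5 over E16.5 on log2(TPM + 1) with its standard error for the 41 genes tested, grouped by role. Filled points are called at an adjusted p under 0.05 (14 lower in blue, 1 higher in red), open points are not, and the dashed line marks the median of all genes tested, 0.42.

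In the coagulation cascade (10 genes) 2 fell (F5 and F10), 1 rose (F9) and 7 were not called, with a median log2 fold change of -0.84. Kng1, the precursor of bradykinin and a cofactor of contact activation, was the most abundant, at 1595, 1742 and 2101 TPM at E16.5 and 1186, 412 and 1563 TPM at E18.5. Its E18.5 libraries all lay below those of E16.5 but spread widely, and the change was not called (log2 fold change -0.98 ± 0.47 SE, limma adjusted p = 0.14). F2, which encodes prothrombin, measured 562, 624 and 620 TPM and then 496, 293 and 419 TPM, again without overlap and not called (-0.61 ± 0.20, adjusted p = 0.055). F12, the protease that starts contact activation, stood apart from these, with 428, 513.5 and 445 TPM at E16.5 and 599, 397 and 442 TPM at E18.5, and its stages overlapped (0.03 ± 0.18, adjusted p = 0.89).

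F9, the vitamin K-dependent protease missing in hemophilia B, was the only member that rose. It measured 14.3, 13.2 and 18.5 TPM at E16.5 and 26.5, 20.1 and 32.4 TPM at E18.5, and every E18.5 library was above every E16.5 library. The log2 fold change was 0.73 ± 0.21 (adjusted p = 0.040), or 0.30 and not called under median-of-ratios scaling, and the call was lost without E16.5 replicate A or B or E18.5 replicate A or C. F10, the protease that forms prothrombinase with factor V, went the other way, from 298 ± 46.3 to 109 ± 58.7 TPM (SD, n = 3), a log2 fold change of -1.59 ± 0.40 (adjusted p = 0.027).

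F5, the cofactor of factor X, fell from 431 ± 95.0 to 245 ± 29.1 TPM (-0.79 ± 0.18, adjusted p = 0.021). Factor V is also stored in platelets, and at E16.5 F5 had the order of the summed megakaryocyte markers, highest in replicate C and lowest in B, which at E18.5 it had not. That E16.5 order was not particular to F5. Replicate C was the highest of its stage for 31 of the 41 members tested. The hepatoblast markers Apoa1, Apoa2, Apob, Hnf4a and Fabp1 had the same order as F5. Alb, Afp, Ttr, Rbp4 and Ahsg were also highest in C but lowest in A, and Cps1 was highest in B and lowest in C. The part of megakaryocytes in the fall of F5 was not tested. The call of F10 was lost in 4 of the 6 fits that left out a library (each E16.5 library and E18.5 replicate A) and that of F5 without E18.5 replicate A or B. Of the members not called here, F7, F11, F13b and Klkb1 had log2 fold changes from -1.20 to -0.38.

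The fibrinogen chain genes lie side by side on chromosome 3, with 11.03 kb between Fgg and Fga and 6.51 kb between Fga and Fgb. Fga measured 3205, 3277 and 4428 TPM at E16.5 and 1957, 598 and 3373 TPM at E18.5. Fgb measured 1712, 1727 and 2377 TPM and then 1078, 315 and 1877 TPM, and Fgg 1886, 1977 and 2835 TPM and then 1238, 364 and 2235 TPM. The stages overlapped in each of the 3, since E18.5 replicate C reached the E16.5 range while E18.5 replicate B lay far below both.

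None of the chains was called, with log2 fold changes of -1.19 ± 0.58, -1.15 ± 0.60 and -1.13 ± 0.61 for Fga, Fgb and Fgg and adjusted p from 0.15 to 0.18. The ratio of one chain to another hardly moved. Fga over Fgb was 1.87, 1.90 and 1.86 at E16.5 and 1.82, 1.90 and 1.80 at E18.5, so its highest value was 1.06 times its lowest, and Fgg over Fgb ran from 1.10 to 1.19. The chains form a single protein of paired alpha, beta and gamma chains. In E18.5 replicate B the counts behind these ratios were still 9198, 6130 and 3899 reads for Fga, Fgb and Fgg.

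**Figure D3:**
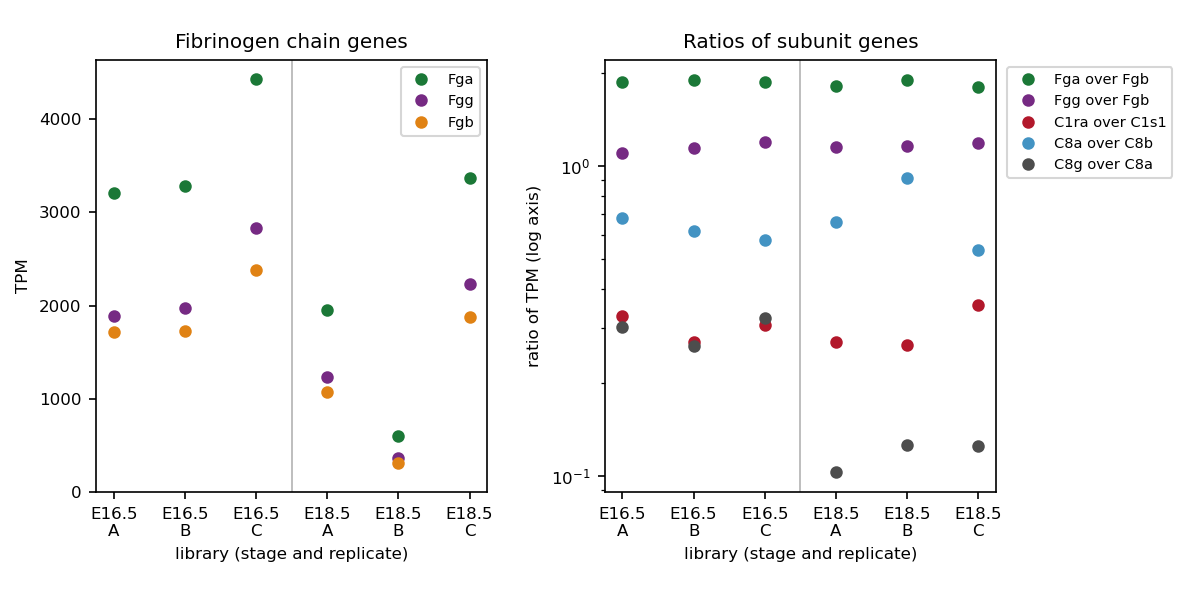
TPM of the fibrinogen chain genes (left) and ratios of TPM between subunits of one complex on a log axis (right) in each library, with a line between the stages. Fga ranged from 598 to 4428 TPM while Fga over Fgb stayed between 1.80 and 1.90, and C8g over C8a was lower in every E18.5 library than in every E16.5 library.

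Among the anticoagulants (5 genes) Serpind1 and Serpinc1 fell, and the class had a median log2 fold change of -1.57. Serpind1, which encodes heparin cofactor II, an inhibitor of thrombin, measured 381, 377 and 478 TPM at E16.5 and 109, 35.4 and 151 TPM at E18.5 (-2.28 ± 0.49, adjusted p = 0.018). Serpinc1, which encodes antithrombin, measured 326, 337 and 413 TPM and then 121, 38.2 and 172 TPM (-1.93 ± 0.50, adjusted p = 0.029). In both the stages were far apart, and replicate B was the lowest by a wide margin at E18.5.

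Serpinc1 shares 34.4% of its exonic length with Zbtb37 on the opposite strand, and the sources used here do not say whether counting used the strand. Its call was lost in 4 of the 6 fits without a library (each E16.5 library and E18.5 replicate A), and that of Serpind1 without E16.5 replicate C or E18.5 replicate A. Proc, the precursor of activated protein C, measured 690, 759 and 741 TPM and then 697, 515 and 586 TPM, and the stages overlapped (-0.29 ± 0.15, adjusted p = 0.16). Proz, the cofactor by which Serpina10 inhibits factor X, gave -1.57 ± 0.51 (adjusted p = 0.054), and Pros1, the cofactor of protein C, -0.70 ± 0.27 (adjusted p = 0.084). Pros1 was the exception among the anticoagulants in its order at E18.5, highest in replicate B at 31.0 TPM against 22.4 and 26.5 TPM in A and C. The summed megakaryocyte, cholangiocyte and myeloid markers were also each highest of the stage in that library, and their part was not tested.

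Of the genes of fibrinolysis (5) 1 fell, Serpinf2, and the class median was -0.48. Serpinf2 encodes alpha2-antiplasmin, the main inhibitor of plasmin, and measured 2225, 2198 and 2584 TPM at E16.5 and 1040, 574 and 1071 TPM at E18.5 (-1.43 ± 0.26, adjusted p = 0.014). Plg, which encodes plasminogen itself, measured 2314, 2413 and 2722 TPM and then 1688, 855 and 1748 TPM (-0.86 ± 0.29, adjusted p = 0.060). The ratio of Plg to Serpinf2 was 1.04, 1.10 and 1.05 at E16.5 and 1.62, 1.49 and 1.63 at E18.5, so the enzyme precursor stood higher relative to its inhibitor in each E18.5 library (exact permutation p = 0.10, two-sided, the smallest that 3 against 3 allows).

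Cpb2, a carboxypeptidase that slows clot lysis, gave -0.48 ± 0.17 (adjusted p = 0.068) and did not overlap between the stages. Vtn, which encodes vitronectin, a plasma protein that stabilises the inhibitor of plasminogen activators and also binds the terminal complement complex, was among the most abundant at both stages, at 4295, 5137 and 4471 TPM and then 4559, 2915 and 3217 TPM, with overlap (-0.40 ± 0.24, adjusted p = 0.22). Hrg, a plasma glycoprotein that binds plasminogen and heparin, had a wide range at E18.5. It measured 104, 130 and 156 TPM at E16.5 and 201, 46.4 and 464 TPM at E18.5, so that 2 E18.5 libraries lay above and replicate B below the whole E16.5 range. Hrg gave 0.35 ± 0.74 (adjusted p = 0.73), and -0.40 without E18.5 replicate C. Kng1, which lies 96.2 kb away on chromosome 16, had the same order of libraries as Hrg within each stage. That order was not particular to the pair, since Alb, Plg, Hc and the 3 fibrinogen chain genes had it too. Unlike those of Hrg, all E18.5 libraries of Kng1 lay below those of E16.5. Hrg over Kng1 rose from 0.071 ± 0.005 to 0.193 ± 0.094 (SD, n = 3) without overlap (exact permutation p = 0.10).

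Of the genes of complement activation (10) 5 fell (C1ra, C1s1, C2, Cfb and Masp1) and 5 were not called, with a median log2 fold change of -0.69. C3, on which all pathways converge, was the most abundant member at both stages. It measured 4904, 5178 and 5352 TPM at E16.5 and 8480, 5758 and 7034 TPM at E18.5, each E18.5 library above each of E16.5, but the change was not called (0.45 ± 0.24, adjusted p = 0.18) and was about the size of the shift of all genes, with -0.01 under median-of-ratios scaling. C3 made up 16.7%, 16.6% and 15.2% of the summed TPM of the 43 genes at E16.5 and 31.2%, 36.8% and 25.0% at E18.5.

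C1s1 and C1ra encode the proteases C1s and C1r of the classical pathway and lie 6.90 kb apart on chromosome 6. C1s1 measured 211, 229 and 253 TPM and then 142, 69.3 and 128 TPM, a log2 fold change of -1.08 ± 0.26 (adjusted p = 0.025), and C1ra gave -1.09 ± 0.32 (adjusted p = 0.039). C1ra over C1s1 overlapped between the stages, at 0.301 ± 0.029 and 0.297 ± 0.051. Both have near-identical paralogs, C1rb and C1s2, between which reads can be split, and C1s1 shares 18.4% of its exonic length with an antisense gene. The call of C1ra was lost without any of the E16.5 libraries or E18.5 replicate A, and that of C1s1 without any of the E16.5 libraries.

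The lectin pathway genes differed in how far their libraries spread. Masp1, a protease that mannose-binding lectins carry, measured 161, 150 and 183 TPM at E16.5 and 119, 73.0 and 122 TPM at E18.5 (-0.68 ± 0.21, adjusted p = 0.047), a call lost in 5 of the 6 fits that left out a library (all but the one without E18.5 replicate C). Masp2, the protease that cleaves C2 and C4, measured 27.6, 40.9 and 39.7 TPM and then 14.4, 5.27 and 28.7 TPM (-1.36 ± 0.52, adjusted p = 0.081), and 54.9% of its exonic length overlaps Tardbp on the opposite strand. Mbl2, a mannose-binding lectin, measured 5.51, 7.34 and 7.06 TPM and then 8.10, 1.60 and 23.0 TPM, a 14.4-fold range among the E18.5 libraries (0.13 ± 0.72, adjusted p = 0.90), and gave -0.64 without E18.5 replicate C. The Mbl2 values at E18.5 rested on about 60.3, 8.9 and 102 reads in A, B and C, counts that did not come out whole. Mbl1, the other mannose-binding lectin, ranged only from 67.5 to 99.8 TPM at E18.5.

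C2 and Cfb encode the proteases of the classical and alternative C3 convertases and lie 86 bases apart on chromosome 17. Both were low and both fell, C2 from 14.2 ± 1.34 to 8.40 ± 1.47 TPM (-0.70 ± 0.18, adjusted p = 0.028) and Cfb from 18.5 ± 1.56 to 10.8 ± 2.99 TPM (-0.75 ± 0.22, adjusted p = 0.041). A transcript that reads through both, Gm20547, covers 42.8% of the exonic length of C2 and 79.5% of that of Cfb on the same strand, where reads may go uncounted. The call of C2 was lost in each of the 6 fits that left out a library and that of Cfb in 5 (all but the one without E18.5 replicate C). C4b, the remaining member of this class, overlapped between the stages (-0.12 ± 0.49, adjusted p = 0.87). How reads were divided between C4b and its paralog C4a was not tested.

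Among the complement regulators (3 genes) limma called none, with a median of -0.15. At an unadjusted p under 0.05 there were 24 of the 41 members (58.5%, where 46.7% of all genes were), none of these 3 or of the fibrinogen chains among them. C4bp was called lower under 3 alternatives. Its log2 fold change was -0.77 under median-of-ratios scaling, -0.75 under quantile normalization and -0.51 with voom on recovered reads (adjusted p = 0.028, 0.029 and 0.046). Other members not called also changed with the processing. F11 was called lower under 5 of the 15 alternatives, Proz under 4 and F2 under 3, and the rest under fewer or none. Cfi, the protease that degrades C3b and C4b, measured 997, 1125 and 1040 TPM at E16.5 and 1312, 1081 and 1004 TPM at E18.5 (0.10 ± 0.15, adjusted p = 0.65). Serping1, the C1 inhibitor, measured 124, 126 and 138 TPM and then 125, 88.9 and 140 TPM (-0.15 ± 0.18, adjusted p = 0.51). C4bp, a binding protein for C4b, measured 14.2, 17.8 and 14.3 TPM and then 12.8, 10.6 and 12.2 TPM (-0.35 ± 0.16, adjusted p = 0.13). The stages overlapped for Cfi and Serping1, whereas all E18.5 libraries of C4bp were below those of E16.5.

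The terminal complement genes (6) included Hc and C8g, each with a log2 fold change under -2. Of the 5 that could be tested 4 fell (Hc, C8a, C8g and C9), with a class median of -1.57. Hc, which encodes C5, the protein from which the membrane pore assembly starts, measured 218, 258 and 273 TPM at E16.5 and 57.6, 27.0 and 77.9 TPM at E18.5 (-2.30 ± 0.35, adjusted p = 0.011). C3 over Hc, whose proteins are cleaved in turn, went from 20.7 ± 1.53 to 150 ± 61.7 (SD, n = 3), 7.25-fold higher at E18.5.

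C8 is built of 3 chains encoded by C8a, C8b and C8g, of which C8b and C8a lie 11.1 kb apart on chromosome 4 and C8g lies on chromosome 2. C8g measured 51.4, 45.1 and 64.6 TPM at E16.5 and 10.5, 7.60 and 14.7 TPM at E18.5 (-2.23 ± 0.25, adjusted p = 0.0076). C8a measured 170, 171 and 199 TPM and then 102, 60.5 and 118 TPM (-0.99 ± 0.24, adjusted p = 0.025), a call lost without any of the E16.5 libraries or E18.5 replicate A. C8b measured 249, 277 and 345 TPM and then 155, 66.3 and 219 TPM (-1.13 ± 0.41, adjusted p = 0.070).

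The 3 chains of C8 thus did not keep a fixed ratio. C8a over C8b overlapped between the stages, at 0.625 ± 0.052 and 0.703 ± 0.192, while C8g over C8a was 0.303, 0.263 and 0.324 at E16.5 and 0.103, 0.126 and 0.125 at E18.5, 2.52-fold lower and without overlap (exact permutation p = 0.10). C9, which polymerises into the pore wall, fell from 124 ± 16.6 to 41.8 ± 12.02 TPM (-1.57 ± 0.21, adjusted p = 0.0089) and was lowest in E18.5 replicate C, not B. C6 had 0.124 to 0.679 TPM over the 6 libraries.

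The complement receptor of the list, C5ar1, is a receptor of phagocytes for the C5a fragment. It rested on 1, 2 and 2 reads at E16.5 and 1, 16 and 8 reads at E18.5, all at or under 1.22 TPM, a level too low to be tested. The summed myeloid markers ranged from 87.8 to 133 TPM at E16.5 and from 85.8 to 180 TPM at E18.5, and were highest in E18.5 replicate B, as C5ar1 was. Their part was not tested.

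**Figure D4:**
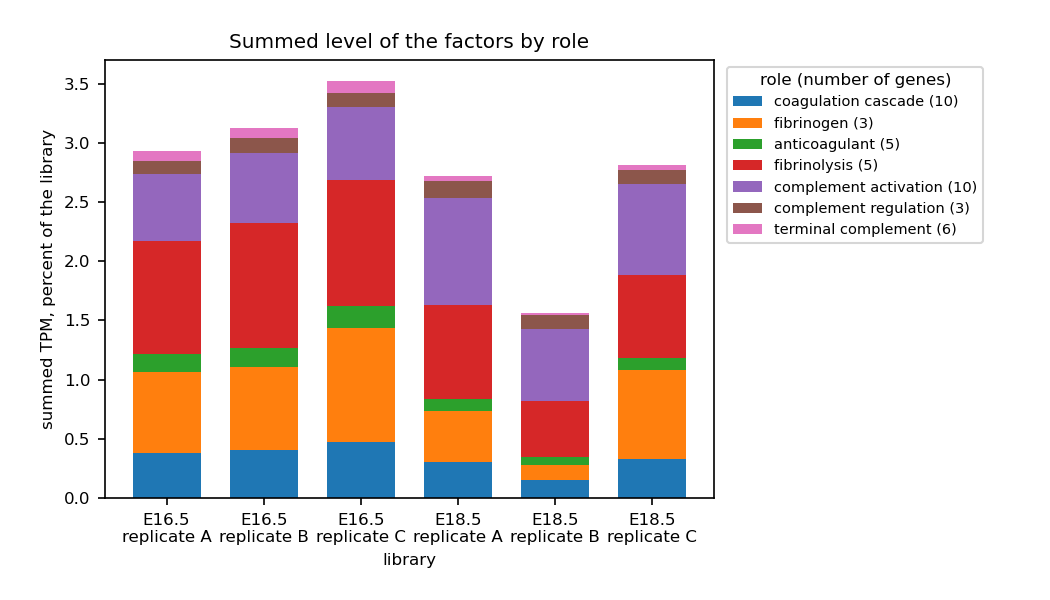
Summed TPM as a percent of each library, stacked by role with the number of genes of each role in brackets (C5ar1, under 2 TPM in every library, is not drawn). The sum was 2.93%, 3.12% and 3.52% at E16.5 and 2.72%, 1.56% and 2.81% at E18.5, and the fibrinogen share of the sum fell to 8.16% in E18.5 replicate B.

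The members spread more among the E18.5 libraries than genes at large did. Their highest library was a median of 1.94 times the lowest at E18.5 and 1.25 times at E16.5, whereas over all genes whose mean reached 5 TPM these medians were 1.31 and 1.36. E18.5 replicate B was the lowest of its stage for 37 of the 41 members tested, or 90.2%, against 20.7% of all genes, and the order C, A, B from highest to lowest held for 28 of them. The hepatoblast markers behaved alike, with B lowest for 11 of 11, and replicates A, B and C held Alb at 60258, 30024 and 70152 TPM. The cholangiocyte markers were lowest in B for 2 of 10. The part of the hepatoblast share in the spread of the members was not tested.

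Measured relative to Alb in the same library, fewer members were lower at E18.5. Serpinc1, Serpind1, Hc and C8g still lay below E16.5 in each E18.5 library, at 0.694, 0.542, 0.515 and 0.516 of their E16.5 ratio to Alb. In contrast, 20 of the 41 lay above, or 48.8%, a share below the 81.0% of all genes that did. F9 was 4.46-fold, Hrg 3.86-fold, C3 3.63-fold and Cfi 2.94-fold higher relative to Alb. Fga and Fgb overlapped, at 1.21-fold and 1.24-fold.

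Scaling the libraries to equal hepatoblast markers, none of which is a member, changed the sign of 26 members and left 0 lower. Under it 6 members were called higher, namely F9 (1.91), F12 (1.28), Hrg (1.58), Vtn (0.84), C3 (1.69) and Cfi (1.34, all log2 fold changes), where 67.1% of all genes were higher and the median of all genes was 1.49. The median of the members was then 0.38, with 32 positive and 9 negative. Serpind1, Hc and C8g were among the 9 that stayed negative.

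Further genes of the pathways were mixed. Of 53 such genes 45 were tested, 11 fell, 9 rose and 25 were not called, with a median log2 fold change of 0.26. The largest falls were of genes that platelets and leukocytes express, Itgb2 (an integrin beta chain of complement receptors, -3.69 ± 0.58, adjusted p = 0.011), F2rl3 (a thrombin receptor, -3.54 ± 0.54, adjusted p = 0.010) and Vwf (von Willebrand factor, -3.37 ± 0.48, adjusted p = 0.0094). Within E16.5 each had the order of the summed megakaryocyte markers, highest in replicate C and lowest in B. Members such as F10 and Serpind1 had that order too, and the part of megakaryocytes was not tested. The largest rises were of Plaur (the urokinase receptor, 2.13 ± 0.50, adjusted p = 0.023), Clu (clusterin, an inhibitor of the terminal complex, 1.93 ± 0.29, adjusted p = 0.010) and Colec10 (a collectin of the lectin pathway, 1.497 ± 0.33, adjusted p = 0.019). Clu, at 822, 937 and 453 TPM and then 2796, 3104 and 2219 TPM, was highest in replicate B at both stages.

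On chromosome 8, F7, F10 and Proz lie within a few kb of each other. F10 and Proz had close log2 fold changes (-1.59 and -1.57, the latter not called). F10 over F7 was 9.04, 10.5 and 12.9 at E16.5 and 6.94, 7.34 and 6.26 at E18.5, and Proz over F7 was 5.57 ± 0.997 and then 3.54 ± 0.448 (SD, n = 3). Both ratios stood lower at E18.5 without overlap, at 0.634 and 0.636 of their E16.5 means (exact permutation p = 0.10 for each). F11 over its neighbour Klkb1 was 5.94 ± 0.163 and then 3.46 ± 0.896 (SD, n = 3), also without overlap (exact permutation p = 0.10). Klkb1 shares 43.2% of its exonic length with another annotated gene, Gm45753, on the same strand.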

How the data were processed

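RNA was sequenced from GFP-positive embryonic liver cells in 6 libraries, 3 per stage. The authors trimmed the reads, used HISAT2 2.1.0 for alignment to GRCm38 and HTSeq-count 0.5.4p3 with GENCODE for counts per gene, and turned the counts into TPM, the unit of the deposited table. TPM is relative to the total of a library. Positions, exon lengths and symbols came from GENCODE vM21, which holds 52403 of the 52550 identifiers.

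Whole reads were worked back from TPM and exon length. All values of genes with an unchanged identifier version came out whole within 0.05, and 35 of the 43 members did.

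The test between stages was a linear model in limma 3.58.1 (R 4.3.3) with a trended eBayes prior, fitted to log2(TPM + 1) for the 22452 genes that averaged 1 TPM or more, and p-values were adjusted by Benjamini-Hochberg with a threshold of 0.05. Fold changes understate those of low genes. Ratios between genes were compared by two-sided exact permutation tests in Python 3.11.15 with scipy 1.17.1, with no adjustment over the pairs, which were chosen after the values were seen. No pair of libraries within a stage agreed within sampling noise (chi-square per degree of freedom of 15.0 or more). On simulated data the fit recovered most of the larger changes placed there but missed most of the smaller ones. A member that was not called may therefore still have changed.

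The members, the lists of further genes and markers, and the tests were chosen with earlier results of these data known. Per-library values are given for the 3 most abundant members of each role, for members called against the majority or by at least 2 on the log2 scale, and for those whose libraries within a stage differ at least 5-fold at a mean of at least 5 TPM. Other members and the ratios were named after their values were seen. Of further genes the 3 largest rises and falls with a mean of at least 5 TPM are named. Alternatives were a pseudocount of 0.1, no filter, a minimum of 5 TPM, 3 scalings, no trend, voom on recovered reads, a replicate block and leaving out each library.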

Additional observations from a re-analysis of the deposited data

How the results depend on the processing

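The 15 calls among the members became 6 under hepatoblast marker scaling and 8 with no filter on low values. They ranged from 5 to 19 when a library was left out. Over all genes the 7000 calls of 22452 became 15306 of 22452 under hepatoblast marker scaling and 4282 of 43310 with no filter. With a library left out they ranged from 1472 of 22410 to 5686 of 22220. The other alternatives gave member counts within 1.5 times of 15. Voom, however, tested only 34 of the members, of which 22 were called lower and 0 higher. Over all genes it called 1362 of 20450 lower. Calls among the further genes ranged from 13 to 19 with a library left out. The labels do not say whether libraries with the same replicate letter belong together. Deviations from the stage mean correlated at -0.04, 0.08 and 0.14 between same-letter libraries A, B and C, and at -0.15 to 0.08 between different letters. With 3 libraries per stage this cannot show whether a letter stood for a shared litter or batch. A replicate block gave 17 calls, which included all 15.

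Of 608 comparisons of a member with an alternative 42 changed sign, 26 of them under hepatoblast marker scaling, which subtracts the fall of those markers from every gene. There the log2 fold changes became 0.63 (F2), 0.44 (F5), 0.27 (F7), 0.037 (F11), 0.31 (F13b), 0.83 (Klkb1), 0.26 (Kng1), 0.057 (Fga), 0.088 (Fgb), 0.11 (Fgg), 0.95 (Proc), 0.51 (Pros1), 0.38 (Plg), 0.76 (Cpb2), 0.84 (Vtn), 0.12 (C1ra), 0.15 (C1s1), 0.44 (C2), 1.11 (C4b), 0.40 (Cfb), 0.55 (Masp1), 0.87 (Mbl1), 1.08 (Serping1), 0.81 (C4bp), 0.24 (C8a) and 0.11 (C8b). Median-of-ratios scaling gave -0.0094 (C3), -0.36 (Cfi), -0.42 (F12), -0.10 (Hrg) and -0.24 (Mbl2), quantile normalization -0.019 (F12) and -0.27 (Mbl2), and voom -0.035 (Cfi) and -0.092 (F12). With a library left out the ranges were -0.57 to 0.50 (C4b), -0.015 to 0.18 (Cfi), -0.14 to 0.16 (F12), -0.40 to 1.24 (Hrg), -0.64 to 0.96 (Mbl2) and -0.29 to 0.036 (Serping1). The causes were not tested. The 15 called members kept their direction under every alternative other than hepatoblast marker scaling.

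C6 and C5ar1 had too low a level to be tested. Exact permutation tests of 3 against 3 libraries cannot go below p = 0.10.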
